A study of Mus musculus with 2 samples.

Results

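Tissue macrophage and C1q genes were followed in long-read RNA sequencing of the mouse adrenal gland: Csf1r, Adgre1, Cd68, Mrc1, Lyz2, C1qa, C1qb, C1qc, Tyrobp and Fcer1g. The 10 genes were chosen by name, and every transcript model that carried one of these names was taken, which gave 30 models with 159 reads in replicate 1 and 41 models with 484 reads in replicate 2, among 107755 and 137106 models in all. In all, 18580 annotated genes had reads. The tissue was taken at 10 days of age from males of the F1 hybrid B6CASTF1/J, with no treatment named in the labels. There was 1 group with 2 biological replicates, so no conditions could be compared, and the libraries were compared with each other. The labels call the animal of replicate 2 by different numbers in different fields and give both samples a shared donor, so it is unclear whether the libraries come from separate animals, and p-values here measure only the difference between the reads of these libraries.

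Macrophages are resident in the adrenal gland as in most tissues. Their survival depends on the receptor encoded by Csf1r, and Adgre1 (the F4/80 antigen), Cd68 (a lysosomal glycoprotein), Mrc1 (the mannose receptor) and Lyz2 (lysozyme) are used to mark them. C1qa, C1qb and C1qc encode the chains of C1q, which starts the classical complement pathway and is made largely by tissue macrophages. Tyrobp (DAP12) and Fcer1g (the common Fc receptor gamma chain) are membrane adaptors that carry an immunoreceptor tyrosine-based activation motif, or ITAM, and pass on signals from receptors that have none. Neither adaptor is limited to macrophages, since neutrophils, natural killer cells and mast cells also use them, and neutrophils also make Lyz2.

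The coding sequences of the C1q chains are shown at the collagen-like stem, which the 3 chains share. The glycine codons, GGN, that recur with 2 other codons between them are in capitals. The longest unbroken run of this pattern held 16 triplets in C1qa, 29 in C1qb and 16 in C1qc. The stretches below are the first 90 bases of each run, in mm10 coordinates on the minus strand, and were read from the GENCODE M21 transcripts: C1qa exon 3 of 3 at chr4:136896619-136896708, C1qb exon 2 of 3 at chr4:136882128-136882217 and C1qc exon 3 of 3 at chr4:136890493-136890582.
C1qa: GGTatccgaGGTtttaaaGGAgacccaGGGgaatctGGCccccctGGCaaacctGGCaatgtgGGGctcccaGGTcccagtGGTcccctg
C1qb: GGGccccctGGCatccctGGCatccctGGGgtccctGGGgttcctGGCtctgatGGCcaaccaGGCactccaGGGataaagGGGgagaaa
C1qc: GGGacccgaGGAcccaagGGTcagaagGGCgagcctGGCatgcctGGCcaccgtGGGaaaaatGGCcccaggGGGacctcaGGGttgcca

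The adaptor genes are shown at the ITAM, the part of the protein that their signalling role rests on. A search of each coding sequence for the ITAM codon pattern found 1 match in each gene, 45 bases long in both, with the codons of its tyrosines in capitals. The match lies in exons 4 to 5 of 5 in both genes, as numbered in Tyrobp-201 and Fcer1g-201. It is at chr7:30415670-30417382 on the plus strand in Tyrobp and at chr1:171229889-171230072 on the minus strand in Fcer1g. The Tyrobp reads on annotated transcripts lay on Tyrobp-202 and Tyrobp-203, and none lay on Tyrobp-201.
Tyrobp: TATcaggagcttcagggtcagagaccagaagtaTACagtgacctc
Fcer1g: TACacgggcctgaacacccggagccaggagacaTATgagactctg

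Lyz2 has a near copy, Lyz1, 5475 bases away on chromosome 10, and the start of both coding sequences is shown because reads could be placed on either gene. The coding sequences, each of 447 bases, differed at 22 positions and were 95.1% identical. Within the first 120 bases, from exon 1 of 4 on the minus strand (chr10:117282123-117282242 in Lyz2 and chr10:117292719-117292838 in Lyz1), 11 bases differ and are in capitals. Lyz1 had 1 read in replicate 1 and 0 in replicate 2, which allows a level of at most 2.30 CPM there.
Lyz2: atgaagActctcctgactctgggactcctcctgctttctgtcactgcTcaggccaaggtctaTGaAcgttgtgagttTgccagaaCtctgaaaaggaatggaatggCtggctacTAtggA
Lyz1: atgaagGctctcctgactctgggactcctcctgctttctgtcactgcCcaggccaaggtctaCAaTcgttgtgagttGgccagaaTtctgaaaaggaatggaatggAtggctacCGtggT

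Levels are given as CPM, the reads of a gene per 1000000 reads on annotated genes. Each long read was counted as a cDNA molecule, whole or in part, so levels were not divided by transcript length. Transcript length went with the ratio between the libraries, as given below. Its effect on the order of genes within a library was not tested. Replicate 1 held 927914 and replicate 2 held 1303420 reads on annotated genes, and where a gene has 0 reads the data allow as many as 3, which is 3.23 and 2.30 CPM. The libraries differed widely: of the 11650 genes with at least 10 reads in the libraries combined, 35.1% differed, 13.0% higher and 22.2% lower in replicate 2, at an adjusted p under 0.05 (two-sided Fisher's exact test with Benjamini-Hochberg adjustment over all of them, used throughout). Replicate 2 also had shorter models, with a mean of 1904 nt per read against 2335 nt. The labelled tissue was visible in both libraries, with 30893 and 19802 CPM over 6 adrenal cortex genes and 11472 and 6063 CPM over 6 chromaffin genes.

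The 10 genes together made up 171 and 371 CPM, or 271 ± 141 CPM (mean ± SD, n = 2 throughout). All 10 passed the minimum for testing. Lyz2, Tyrobp and Fcer1g were higher in replicate 2, none was lower and 7 passed in neither direction, so 3 of 10 were called higher beside 13.0% of all tested genes. The median log2 ratio of replicate 2 to replicate 1 was 0.68 over the 10 genes and -0.25 over all tested genes, and 9 of the 10 had a higher level in replicate 2. In bulk tissue, more cells of a type and more RNA per cell cannot be told apart. With TMM factors or DESeq2 size factors, which moved the median of all genes to 0.01 and 0.00, the count was 6 in each case, beside 17.0% and 16.9% of all genes. With the dispersion that edgeR estimated across genes from these same 2 libraries taken as 1 group, its exact test called 0 members (1 at an unadjusted p under 0.05), beside 0.232% of all genes. That estimate counts the difference under test as spread, so the low number of calls cannot show whether the members differ.

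**Figure D1:**
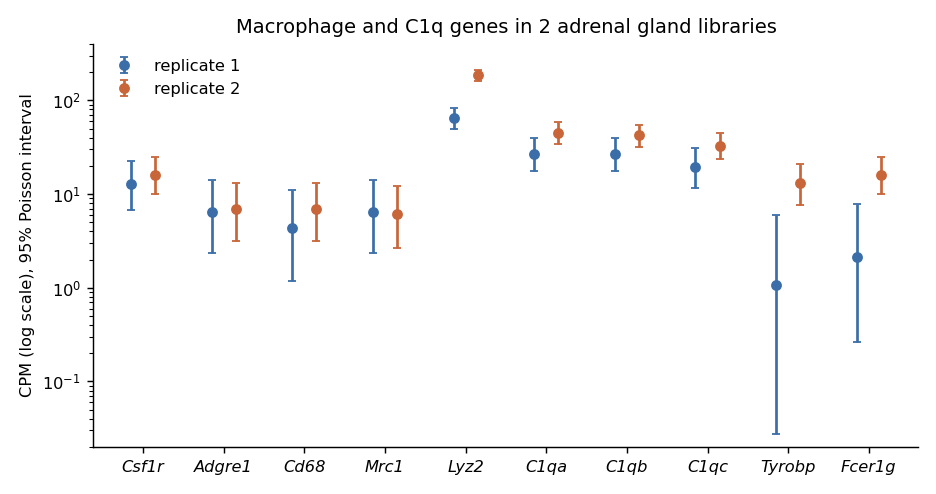
Level of each gene in each library, in CPM on a log axis, with exact Poisson 95% intervals; blue points are replicate 1 and orange points replicate 2. Lyz2 had the highest level in both libraries, at 64.7 and 186 CPM, and the intervals of the 2 libraries do not overlap for Lyz2, Tyrobp and Fcer1g.

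Among the macrophage markers, Lyz2 had by far the most reads, with 60 in replicate 1 (64.7 CPM) and 242 in replicate 2 (186 CPM), or 125 ± 85.6 CPM. It was 2.87-fold higher in replicate 2 (95% interval of the ratio 2.16 to 3.88, adjusted p = 3.93e-14, two-sided Fisher's exact test). Lyz2, which encodes an enzyme that cleaves bacterial cell walls, took 37.7% of the reads of all 10 genes in replicate 1 and 50% in replicate 2. Without it the other 9 genes summed to 107 and 186 CPM.

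Csf1r, the receptor of CSF1 and IL-34 at chr18:61100598-61132149, had 12 and 21 reads, at 12.9 and 16.1 CPM (14.5 ± 2.25). Its ratio of 1.25 (interval 0.585 to 2.78) did not pass the test (adjusted p = 0.741, Fisher's exact test). The ligands had fewer reads: Csf1 had 5 reads in each library and Il34, the other ligand, had 2 and 10, and neither passed the test. Whether their levels were under that of Csf1r was not tested. Csf1r overlaps Hmgxb3 on the opposite strand, which had 17 and 11 reads, and the log2 ratio of Csf1r was 0.29 alone and -0.35 with these reads added. How far the reads of the 2 genes were kept apart by strand is not given in the sources used here.

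The other markers were low in both libraries. Adgre1, at chr17:57358691-57483527, had 6 and 9 reads (6.47 and 6.90 CPM, 6.69 ± 0.310). Mrc1, at chr2:14229392-14332057, had 6 and 8 reads (6.47 and 6.14 CPM, 6.30 ± 0.232). Cd68, at chr11:69664213-69666153, had 4 and 9 reads (4.31 and 6.90 CPM, 5.61 ± 1.83). None of these passed the test, and with so few reads the intervals of their ratios were wide, at 0.339 to 3.65 for Adgre1, 0.289 to 3.32 for Mrc1 and 0.447 to 7.12 for Cd68. The direction for Mrc1 was not fixed, with a log2 ratio of -0.10 here and 0.16 with TMM factors. A change of 2-fold in any of the 3 genes lies inside these intervals and was not detectable at this depth.

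C1qa, C1qb and C1qc lie side by side on the minus strand of chromosome 4, with gaps of 3616 bases between C1qb and C1qc and 2851 bases between C1qc and C1qa. C1qa, at chr4:136895917-136898803, had 25 and 59 reads, at 26.9 and 45.3 CPM (36.1 ± 13.0). C1qb, at chr4:136880129-136886187, had 25 and 55 reads, at 26.9 and 42.2 CPM (34.6 ± 10.8). C1qc, at chr4:136889804-136893065, had 18 and 43 reads, at 19.4 and 33.0 CPM (26.2 ± 9.61). All 3 had higher levels than every member other than Lyz2 in both libraries. Their own intervals overlapped, so their order among themselves was not resolved. In replicate 1 the intervals of all 3 overlapped with that of Csf1r, and the interval of C1qc also with those of Adgre1 and Mrc1. In replicate 2 the interval of C1qc overlapped with those of Csf1r and Fcer1g. Csf1r, Adgre1 and Mrc1 have longer transcripts than the C1q genes, and the effect of length on these levels was not tested.

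The C1q chains assemble from equal numbers of the 3 gene products, and their reads over all models kept close proportions. C1qa, C1qb and C1qc took 36.8%, 36.8% and 26.5% of the 68 C1q reads in replicate 1 and 37.6%, 35.0% and 27.4% of the 157 in replicate 2, each inside the 95% Clopper-Pearson interval of the other library. Their ratios of 1.68, 1.57 and 1.70 did not pass the test (adjusted p = 0.0866, 0.150 and 0.148, Fisher's exact test). This call depended on the scaling: with TMM factors the log2 ratios were 1.00, 0.90 and 1.01 and all 3 passed, with adjusted p = 0.0131, 0.0355 and 0.0368. Against the ratio expected at their length none passed. The proportions also depended on the models counted, as 10 of the C1qc reads in replicate 2 lay on a Genomic model. On Known models the reads were 20, 20 and 17 in replicate 1 and 45, 53 and 30 in replicate 2. There C1qb passed (log2 1.00, adjusted p = 0.0194, Fisher's exact test) and C1qc did not (log2 0.42, adjusted p = 0.520).

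The promoter of C1qb is shown because it is the C1q gene whose RefSeq window (GRCm38.p6) lies wholly before the start that GENCODE gives. RefSeq puts the start of C1qc further downstream than GENCODE does, so that 151 of its 250 bases lie inside the GENCODE gene, and its sequence is left out; C1qa is named only. The line below holds the 250 bases before the RefSeq start of C1qb, on the minus strand, at chr4:136886201-136886450. The 1 match to AGGAAG on either strand, a core of sites bound by PU.1 and other ETS factors, is in capitals. Of the 6 members with an entry, 5 held the motif in the 250 bases before the RefSeq start, as did 29.5% of 32851 promoters of the same length. TTNNGNAA, a C/EBP-like pattern, was in 4 of the 6 and in 36.8% of all promoters, and TGANTCA, an AP-1-like pattern, was in 1 of the 6 (Cd68) and in 6.75%; the 3 motifs were searched separately on both strands, with overlaps allowed. In 4 of the 6 windows, between 16 and 151 bases lie inside the GENCODE gene. These matches describe the letters and do not show binding.
C1qb: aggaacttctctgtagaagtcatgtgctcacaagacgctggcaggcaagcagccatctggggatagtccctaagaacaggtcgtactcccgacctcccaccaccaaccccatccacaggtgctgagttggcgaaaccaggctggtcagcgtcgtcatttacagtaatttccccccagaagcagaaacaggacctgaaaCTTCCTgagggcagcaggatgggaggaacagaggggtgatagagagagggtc

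The adaptors Tyrobp and Fcer1g had the largest ratios of the 10 genes, on very few reads in replicate 1. Tyrobp, at chr7:30413760-30417585, had 1 read in replicate 1 (1.08 CPM) and 17 in replicate 2 (13.0 CPM), a ratio of 12.1 with a counting interval from 1.90 to 506 (adjusted p = 0.00535, Fisher's exact test). Fcer1g, at chr1:171229572-171234365, had 2 and 21 reads (2.16 and 16.1 CPM), a ratio of 7.48 with an interval from 1.83 to 65.8 (adjusted p = 0.00452, Fisher's exact test). In replicate 1 both were at or under the level that a count of 0 allows. These are also the 2 shortest transcripts of the 10, at 597 and 674 nt, and neither passed against the ratio expected at that length (adjusted p = 0.237 and 0.229, exact binomial test).

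The receptors that these adaptors serve were near the limit of detection. Of 12 TYROBP-coupled receptors, 9 had reads, but they summed to 3 reads in replicate 1 and 15 in replicate 2 and none could be tested. Trem2, a lipid-sensing receptor of macrophages, had 1 and 2 reads. Among 12 partners of the Fc receptor gamma chain, Fcgr3, an activating receptor for IgG, had 5 and 17 reads and did not pass (adjusted p = 0.178, Fisher's exact test). The 1 partner called higher was Gp6, the platelet collagen receptor, with 0 and 13 reads; it is outside the naming rule and was chosen after its values were seen, and all 13 reads lay on a single-exon Genomic model rather than on an annotated transcript. Of the inhibitory receptor Fcgr2b and the kinase Syk, Fcgr2b had 5 and 12 reads and Syk 2 and 6.

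Transcript length went with the ratio between the libraries. The 7 members of 597 to 1316 nt summed to 145 and 342 CPM, and the 3 of 3238 to 5374 nt (Csf1r, Adgre1 and Mrc1) to 25.9 and 29.2 CPM. Over all tested genes in the same length ranges, 33.5% of the short and 4.23% of the long were higher in replicate 2, with median log2 ratios of 0.41 and -0.49. When each gene was tested against the ratio that a running fit gave at its length, Lyz2 alone of the 10 passed, beside 12.9% of all genes, with a log2 ratio of 1.50 over an expected 0.01 (adjusted p = 9.86e-14, exact binomial test). All 10 genes lay above the fit, with a median of 0.57, beside -0.02 over all genes.

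**Figure D2:**
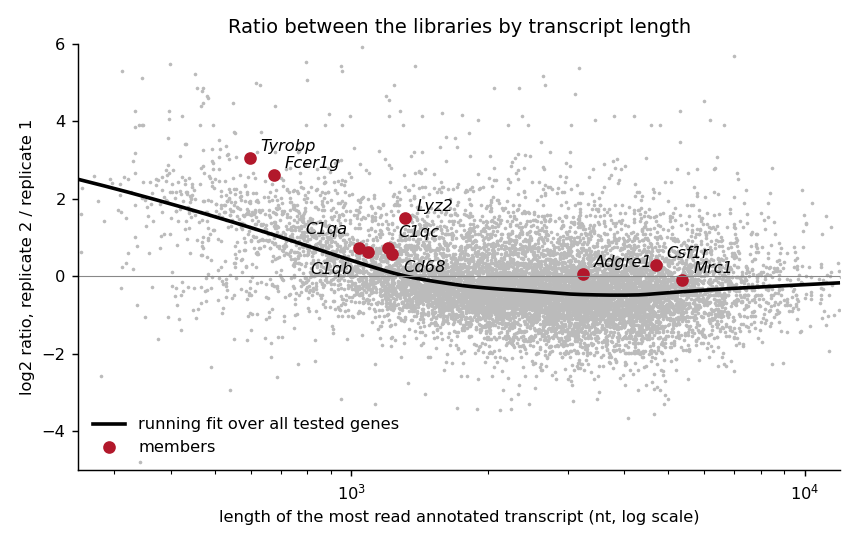
Log2 ratio of replicate 2 to replicate 1 (vertical axis) against the length in nt of the most read annotated transcript (log axis) for all tested genes (grey), with a running fit (black) and the 10 members (red). Short transcripts were higher in replicate 2; the members lie above the fit, Lyz2 at 1.51 and Tyrobp and Fcer1g at 3.05 and 2.61.

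Most reads of the 10 genes followed annotated transcripts, the class called Known: 130 of 159 in replicate 1 (81.8%) and 416 of 484 in replicate 2 (86.0%). Over all reads on annotated genes the Known share was 79.8% and 73.9%. Lyz2 alone gave 58 of the 130 and 234 of the 416 Known reads, so the pooled share of the members rests largely on it. The rest were mainly ISM models, which match part of the introns of an annotated transcript, with 19 and 43 reads. NIC models join annotated splice sites in an unannotated way and had 1 and 2 reads, NNC models hold an unannotated site and had 6 and 8, and Genomic models lie within a gene, mostly in a single exon, and had 3 and 15.

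Read class varied among the genes. Lyz2 reads were Known in 58 of 60 and 234 of 242 cases, while Csf1r reads were Known in 2 of 12 and 7 of 21. Mrc1 had 3 of 6 and 1 of 8 Known reads. The Known share was compared between libraries for the 5 members with 10 or more reads in each, and none passed, beside 15.2% of 8540 genes (Fisher's exact test with Benjamini-Hochberg adjustment). At an unadjusted p under 0.05 there were 2: C1qb, with 80% Known in replicate 1 and 96.4% in replicate 2 (exact p = 0.0281, adjusted 0.131), and C1qc, with 94.4% and 69.8% (exact p = 0.0469, adjusted 0.189).

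**Figure D3:**
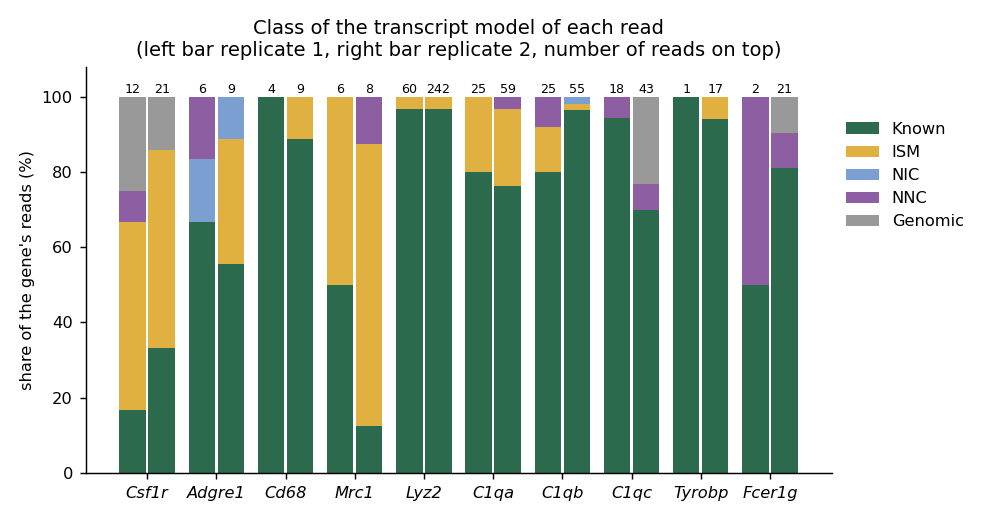
Share of each gene's reads (%) by class of transcript model, with replicate 1 in the left and replicate 2 in the right bar and the number of reads above. Lyz2 was almost wholly Known in both libraries, ISM models held 6 of 12 and 11 of 21 reads of Csf1r and 3 of 6 and 6 of 8 of Mrc1, and C1qc had a Genomic share in replicate 2 only, of 10 among 43 reads.

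Reads of the long genes often lacked the 5′ end. Reads of the 7 short members reached the first exon of the main transcript in 124 of 135 cases (91.9%) in replicate 1 and 412 of 446 (92.4%) in replicate 2. For the 3 long members this was 10 of 24 (41.7%) and 13 of 38 (34.2%). Csf1r, with 21 exons, reached its first exon in 2 of 12 and 7 of 21 reads, Mrc1, with 30 exons, in 3 of 6 and 1 of 8, and Adgre1, with 22 exons, in 5 of 6 and 5 of 9. The last exon was held by all 24 reads of the long genes in replicate 1 and by 37 of 38 in replicate 2.

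**Figure D4:**
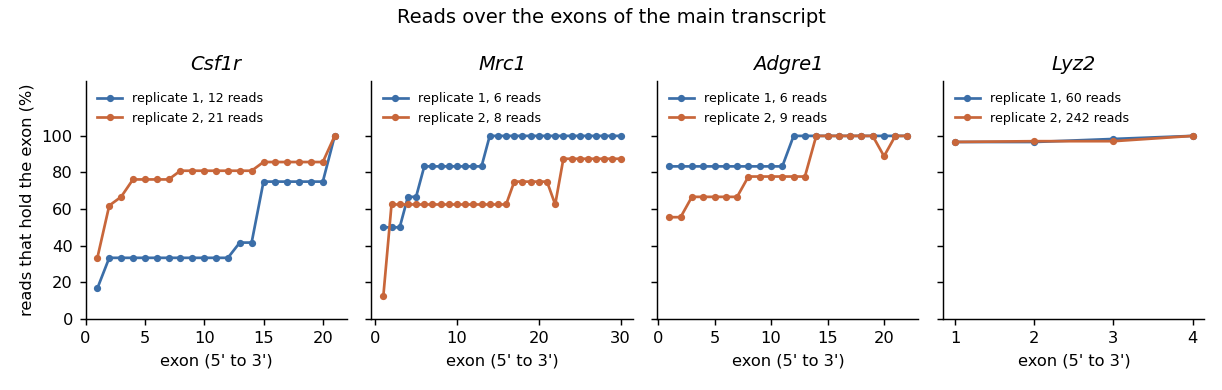
Reads that hold each exon of the main transcript (% of the gene's reads), exons ordered from the 5′ end, for Csf1r, Mrc1, Adgre1 and Lyz2 in both libraries. Coverage declines towards the 5′ exons in the long genes, to 2 of 12 and 7 of 21 reads in Csf1r, and stays level over the 4 exons of Lyz2.

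A single annotated transcript carried the Known reads of 7 members, of 4701 nt in Csf1r, 3238 nt in Adgre1, 5374 nt in Mrc1, 1316 nt in Lyz2, 1040 nt in C1qa, 1088 nt in C1qb and 1203 nt in C1qc. Cd68, Tyrobp and Fcer1g each had 1 read of a second annotated transcript, in replicate 2. No member therefore had 2 annotated transcripts with enough reads to compare isoform shares between libraries.

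Among models outside the annotation, 5 intron chains were read in both libraries. In Csf1r, a 20-exon chain that lacks the first exon had 1 and 6 reads, and a chain of the last 7 exons had 4 and 1. In C1qa, a 2-exon partial chain had 5 reads in each library, and in C1qb a 2-exon partial chain had 1 in each. In C1qc, a 3-exon chain of 1064 nt with an unannotated splice site, at chr4:136889804-136892876, had 1 and 3 reads. A single-exon partial model of C1qa had 7 reads in replicate 2 alone. A single-exon partial model of Lyz2 had 1 and 7 reads. A single-exon Genomic model in C1qc, at chr4:136889168-136890599, had 10 reads in replicate 2 and none in replicate 1, and it runs past the annotated 3′ end of the gene at 136889804.

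Other macrophage genes were read from a list of 30, of which 25 had reads in both libraries and 20 could be tested. Of these, 8 were higher in replicate 2 and none lower, beside 13.0% and 22.2% of all genes. Against the ratio expected at length 6 were higher, beside 12.9% of all genes. The median log2 ratio was 0.96, beside -0.25 over all genes. Cd74, the invariant chain of MHC class II, had 68 and 169 reads (1.77-fold, adjusted p = 0.000341, Fisher's exact test), and the class II chain H2-Ab1 had 27 and 84 (2.21-fold, adjusted p = 0.00119). Cyba, a subunit of the phagocyte oxidase, had 12 and 81 reads (4.81-fold, adjusted p = 3.18e-08). Gas6, a ligand of the receptor Mertk, and the transcription factor Irf8 had 163 and 182 and 35 and 41 reads and did not pass. Some genes outside the naming rule were chosen after their values were seen, for log2 ratios under 0. Cd163 had 12 and 9 reads (log2 -0.89), Marco 6 and 8 (-0.10), Laptm5 11 and 15 (-0.06) and Lyve1 5 and 7 (-0.04). None of these passed.

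The classical complement pathway beyond C1q was described with 11 genes, 10 of them tested. Of these, 3 were higher and 1 lower, beside 13.0% and 22.2% of all genes. C1qbp, a mitochondrial protein that can bind C1q, was the most read, with 310 and 388 reads; it did not pass (adjusted p = 0.253, Fisher's exact test) but was called lower against the ratio expected at length (log2 -0.33, adjusted p = 0.0171, exact binomial test). Calr, a chaperone, had 166 and 221 reads and Serping1, the C1 inhibitor, 86 and 132, and neither passed. The C1 proteases are outside the naming rule and were chosen after their values were seen: C1ra, which C1q activates, had 41 and 129 reads (2.24-fold, adjusted p = 2.06e-05, Fisher's exact test), whereas C1s1, its partner, had 50 and 79 and did not pass (adjusted p = 0.692). C3, the central component, had 127 and 557 reads (3.12-fold, adjusted p = 6.88e-36), and C4b had 63 and 171 (1.93-fold, adjusted p = 3.32e-05). C2 had 84 and 73 reads and was lower (0.619-fold, adjusted p = 0.0105, Fisher's exact test), a call not made with TMM factors or against length. The call of C4b was not made against length either. The length used for C4b was 749 nt, that of its most read annotated transcript. The expected ratio of C4b rests on that length, and other lengths were not tested. C3, C4b, C2 and the C1 proteases are also made in the liver. Of 13 tested lysosomal genes, which most cells express, 2 were higher and 8 lower in replicate 2, beside 13.0% and 22.2% of all genes. With TMM factors these were 3 and 3, beside 17.0% and 11.4%. Ctsd had 1427 and 1630 reads and Ctsb 1402 and 1275.

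Some markers of other cells that express these genes were also called higher in replicate 2, beside 13.0% of all tested genes. That share was 12.9% against the ratio expected at length and 17.0% with TMM factors. With few genes tested per list, a single call cannot be set apart from that share. Of 8 neutrophil genes, 6 could be tested and 3 were higher, or 1 against the ratio expected at length; the list summed to 28.0 and 129 CPM, with S100a8 at 5 and 46 reads and, named for their counts of 0, Elane and Retnlg at 0 in replicate 1. Of 7 monocyte genes, 3 could be tested and 1 was higher (33.4 and 64.4 CPM), with Ly6c2 and Vcan, named for the same reason, among those at 0 in both libraries. Of 6 Kupffer cell genes, 4 could be tested and 1 was higher, or 2 with TMM factors and 2 against length (62.5 and 110 CPM). Cd5l had 5 and 29 reads and was higher. Slc40a1, the iron exporter and the most read gene of the list, had 40 and 80 reads and did not pass (adjusted p = 0.166, Fisher's exact test) but was called higher against length (adjusted p = 0.00261, exact binomial test), and Clec4f had 7 and 18 and did not pass. Of 6 genes of liver sinusoidal endothelium, which also makes Mrc1, 5 could be tested and Clec4g was higher at 5 and 33 reads (35.6 and 67.5 CPM). Of 6 osteoclast genes, 3 were tested and all were higher (46.3 and 117 CPM): Acp5 at 31 and 77 reads, Ctsk at 12 and 44, and Mmp9, chosen after its values were seen, at 0 and 29, at least 6.88-fold against 3 reads in replicate 1. The rest of that list, named for low counts, could not be tested. Calcr had 0 reads in both libraries, and Ocstamp and Dcstamp each had 0 and 1. Of 8 T, B and NK cell genes, 2 could be tested; Cd79b was higher at 1 and 19 reads and Cd79a had 5 and 17 and did not pass (11.9 and 37.6 CPM), and of 6 mast cell genes the 1 tested, Tpsb2, had 3 and 9 reads and did not pass (8.62 and 15.3 CPM).

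All 8 hepatocyte genes and all 4 globin genes were higher in replicate 2, at 9406 and 28434 CPM and at 1231 and 4543 CPM, while 5 of 6 adrenal cortex and 5 of 6 chromaffin genes were lower. Over all tested genes 13.0% were higher and 22.2% lower. Against the ratio expected at length, 3 adrenal cortex genes were lower and 1, Cyp11a1, was higher; with TMM factors 4 were lower and 1 higher. Lyz2, Tyrobp and Fcer1g were higher in the same library as these hepatocyte and globin genes, some neutrophil genes and shorter models. With 2 libraries every gene called higher shares this direction, so it links no particular genes to each other. The log2 ratio expected at length was 0.01 for Lyz2, 1.27 for Tyrobp and 1.07 for Fcer1g. The part of these other cells in the result was not tested.

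**Figure D5:**
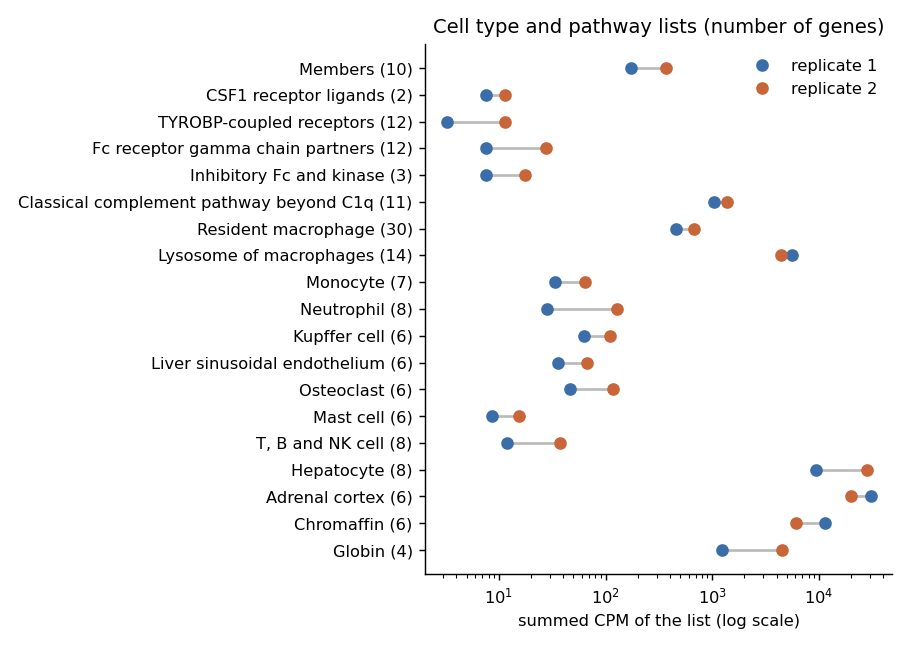
Summed level of each gene list in replicate 1 (blue) and replicate 2 (orange), in CPM on a log axis, with the number of genes in brackets. The 10 members summed to 171 and 371 CPM, the hepatocyte list went from 9406 to 28434 CPM, and the adrenal cortex list was higher in replicate 1, at 30893 against 19802 CPM.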

How the data were processed

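Long-read RNA-seq of adrenal gland was deposited as 1 table and 1 annotation per library. The deposited tables give counts, raw reads per TALON transcript model with no normalization, and the deposited annotations give model positions (other unit: bases on mm10, annotation M21, per the file headers). Alignment settings: not given in the sources used here. The members and lists were chosen with earlier results of these data known. Gene counts were sums over models. With 1 library on each side, a two-sided Fisher's exact test compared replicate 2 with replicate 1 for each gene (scipy 1.17.1), with Benjamini-Hochberg adjustment over all genes with 10 or more reads, a threshold of 0.05, and 0.5 reads added for log2 ratios; fold values are ratios of CPM. Expected ratios at a length came from a lowess fit with a span of 30% (statsmodels 0.14.6) and were tested with an exact binomial test. Alternatives used edgeR 4.0.16 (TMM, exact test) and DESeq2 1.42.0 size factors, all library reads, other minimums, Known models alone, no Genomic models and overlapping genes added. Intervals, exact Poisson or Clopper-Pearson at 95%, describe only the error of counting, as PCR copies are not separate molecules. Named genes were all members and, per list, up to 6 genes with the highest mean CPM and reads in both libraries; exceptions are stated beside them, not every gene it allows is described, and some genes are not reported here. The ratio test was tested on simulated data. Promoters are from RefSeq (GRCm38.p6; 6 of 10 members matched). No protein sequences were used here.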

Additional observations from a re-analysis of the deposited data

How the results depend on the processing

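No paired analysis was possible because all samples form 1 group. The number of members called higher, 3 of 10, became 6 with TMM factors and 6 with DESeq2 size factors, where C1qa, C1qb and C1qc passed. It was 1 of 10 (Lyz2) against the ratio expected at transcript length and 1 of the 3 members left with 20 or more reads in each library (14.6% of all genes). The biological coefficient of variation common to all genes was 0.414, estimated by edgeR from the same 2 libraries. Its exact test used instead a dispersion that follows the level of the gene, from the same libraries. With that test the number of members called was 0. There 1 member and 581 genes had an unadjusted p under 0.05, and 29 of 11650 genes were called. It was 3 with all library reads, with no minimum, without Genomic models and with overlapping genes added, and 4 of 7 with Known models alone, beside 12.3%, 7.54%, 13.3%, 13.0% and 13.6% of all genes. The log2 ratio of Mrc1 reversed to 0.16 with TMM factors, 0.15 with DESeq2 size factors and 0.29 against length, and that of Csf1r to -0.35 with overlapping genes added. The summed level was 371 without replicate 1 and 171 without replicate 2. The comparison of isoform shares and its alternatives were not run, since no member had enough reads. The cause of these differences was not tested, except that the stricter minimum leaves fewer genes. Levels under 3 reads limit Tyrobp and Fcer1g in replicate 1.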

Other observations

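The genes beside the members had ratios of their own. Apoa2, an apolipoprotein gene 3192 bases from Fcer1g on the opposite strand, had 184 and 2524 reads, 9.77-fold higher in replicate 2. Hcst, which encodes the adaptor DAP10 and lies 126 bases from Tyrobp, had 0 and 5 reads. Around Cd68, Eif4a1 had 233 and 231 reads and was lower in replicate 2 (0.706-fold, adjusted p = 0.00106, Fisher's exact test), and Mpdu1 had 79 and 166 and was higher (1.50-fold, adjusted p = 0.0110). Pdgfrb, the receptor gene 15536 bases from Csf1r, had 13 and 20 reads and did not pass. Antisense models over the members held 1 read at Csf1r and 2 at Mrc1, all in replicate 2.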
